A study of Homo sapiens with 4 samples.

Results

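Clusterin (CLU) and sortilin (SORT1) were examined in MCF10A, an established epithelial cell line from non-tumour human breast tissue, after delivery of transcription factors that drive or oppose the epithelial-to-mesenchymal transition (EMT). The 2 genes were selected on their measured levels from 25317 gene symbols. On the log2 scale of FPKM + 1 (FPKM is a fragment count scaled by transcript length and library size), the Zeb1 library was 2-fold or more above the empty vector for both, and the Snail library 2-fold or more below it. They were the only genes to do so among the 12388 that reached 1 FPKM in any library. The choice rests on these same values, so the levels with Zeb1, Snail and the empty vector, and every ratio among them, are a description of how the genes were chosen. Each was found as a single row in every deposited table.

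Cells in all groups grew in medium with horse serum, epidermal growth factor, cholera toxin and insulin. They were infected with a lentivirus (pHIV-ZsGreen) that carried Zeb1, Snail, Ovol2 or no factor (empty vector, EV), and fluorescent cells were sorted on day 6. Zeb1 and Snail are repressors that drive EMT, and Ovol2 drives the reverse transition (MET). Each group was 1 library, 4 in all, so no difference below has a replicate check and none carries a p-value or an error. The labels do not state which promoter drove the factors, whether the delivered coding sequences were human, or how many infections were pooled.

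The delivered factors matched the labels, with ZEB1 at 17.3 FPKM in the Zeb1 library, SNAI1 at 99.7 in the Snail library and OVOL2 at 78.3 in the Ovol2 library, each the highest of the 4. A single fragment was worth between 0.0288 and 0.0413 FPKM for a transcript of 1 kilobase, which sets the depth of the libraries, deepest with Zeb1 and shallowest with Ovol2. The basal epithelial markers KRT5, KRT14, KRT17, TP63, EGFR and CDH1 were present in every library, and 7 such markers with EPCAM summed to 2449 FPKM with Zeb1, 7308 with Snail, 4948 with Ovol2 and 9007 with EV. These sums mostly follow KRT17, at 1571, 4972, 4624 and 5736 FPKM in the same libraries. Single markers differed, with KRT5 at 215 FPKM with Ovol2 and 2929 with EV, and EPCAM at 0.683 with Snail and 6.61 with EV. Of the mesenchymal genes read, FN1 (fibronectin) was at 3982 FPKM with Zeb1, 576 with Snail, 6.60 with Ovol2 and 92.7 with EV. VIM (vimentin) was at 181, 95.6, 1.05 and 12.6 FPKM in the same libraries, so FN1 and VIM were above EV with both EMT factors. COL1A1 was above EV with Zeb1 (log2 ratio of FPKM + 1 of 2.54) but not with Snail, at 2.83 FPKM against 3.49 with EV. PDGFRB did not exceed 0.358 FPKM in any library. The FPKM total differed between libraries, and RMRP and RPPH1 held 22.1%, 18.7%, 40.6% and 24.6% of it in the Zeb1, Snail, Ovol2 and EV libraries.

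Clusterin is a secreted glycoprotein that keeps unfolded proteins in solution outside the cell, travels with lipoproteins as apolipoprotein J and restrains the terminal complement complex. In the mammary gland it is known as a gene that is strongly induced at involution, when the milk-secreting epithelium is removed. Sortilin is a type I membrane receptor with a VPS10P domain. It carries cargo such as prosaposin and acid sphingomyelinase from the Golgi to endosomes and lysosomes, with GGA and AP-1 adaptors on the way out and retromer on the way back. At the cell surface it also binds progranulin, lipoprotein lipase and the precursors of neurotrophins.

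Promoter sequence was read because Zeb1 and Snail both bind the E-box CAGGTG, which reads CACCTG on the other strand. Only SORT1 is shown, since the reference used held no promoter window for CLU. The CLU promoter was therefore not examined. The window runs from 250 bases before to 50 bases after the start of transcription, on the minus strand at chr1:109397869-109398168 of GRCh38.p14, from RefSeq. The E-box is in capitals.
SORT1 promoter: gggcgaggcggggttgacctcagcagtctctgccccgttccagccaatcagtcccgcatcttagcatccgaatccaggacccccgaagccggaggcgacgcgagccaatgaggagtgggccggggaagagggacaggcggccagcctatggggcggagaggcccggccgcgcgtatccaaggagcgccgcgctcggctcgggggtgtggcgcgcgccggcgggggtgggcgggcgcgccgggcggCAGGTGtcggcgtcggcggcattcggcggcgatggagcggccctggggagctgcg
The window held 1 such E-box, whose first base lies 5 bases before the start, so that the motif ends on the first transcribed base. Its GC content was 74.7%, against a median of 58.7% over all 35116 promoter windows, and it held 41 CpG against a median of 14. The E-box, on either strand, occurred in 20.6% of all windows of this length. CCGTTA, a motif of OVOL proteins that reads TAACGG on the other strand, did not occur in this window and occurred in 3.07% of all windows. RefSeq lists a further SORT1 start at chr1:109393086-109393385, whose window held neither motif and had 45.7% GC. The deposited values are per gene, so the 2 starts were not separated. These matches describe letters, and binding was not measured.

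CLU stood at 21.6 FPKM in the Zeb1 library, 2.62 in the Snail, 12.02 in the Ovol2 and 9.85 in the EV library. The Snail library was the low one and the Zeb1 library the high one, with the Ovol2 and EV libraries close together between them on the deposited scale. With the libraries scaled to the same upper quartile, Ovol2 lay closer to Zeb1. The log2 ratios of FPKM + 1 to EV were then 1.12 with Ovol2 and 1.25 with Zeb1. Among genes at 1 FPKM or more in the same library, this put CLU above 83.8% of genes with Zeb1, 17.2% with Snail, 70.7% with Ovol2 and 60.8% with EV. CLU was thus a well expressed gene in 3 libraries and among the weakly expressed ones in the Snail library.

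SORT1 stood at 15.1 FPKM in the Zeb1 library, 2.08 in the Snail, 8.95 in the Ovol2 and 5.86 in the EV library. The order of the libraries was the same as for CLU. It lay above 75.5% of genes at 1 FPKM or more with Zeb1, 12.3% with Snail, 63.6% with Ovol2 and 43.5% with EV. In its lowest library SORT1 held 13.8% of its highest level, and CLU held 12.1% of its own. The estimated fragments behind these values, for the longest coding transcript, ran from 257 to 2311 for CLU and from 465 to 3679.7 for SORT1, lowest with Snail and highest with Zeb1 in both. In bulk RNA, fewer cells that express a gene and less RNA per cell cannot be told apart.

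**Figure D1:**
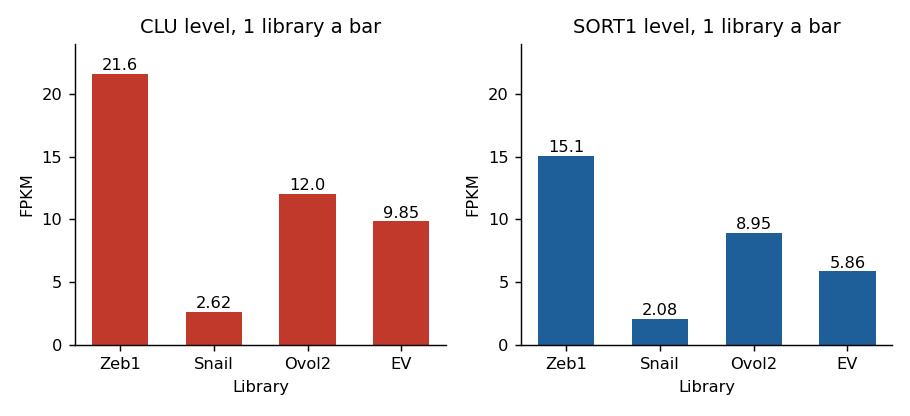
FPKM of CLU (left) and SORT1 (right) in the Zeb1, Snail, Ovol2 and EV libraries, each bar 1 library with its value above it. Both genes are highest with Zeb1 (21.6 and 15.1) and lowest with Snail (2.62 and 2.08), with Ovol2 above EV.

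Against EV, the Zeb1 library had a log2 ratio of FPKM + 1 of 1.06 for CLU (21.6 against 9.85 FPKM, a plain ratio of 2.19) and 1.23 for SORT1 (15.1 against 5.86 FPKM, 2.57). Genes were compared where at least 1 of the libraries reached 1 FPKM. In that comparison 4.52% of 11922 genes were higher by 2-fold or more, and 477 genes had a larger ratio than CLU and 361 than SORT1. Of the 539 genes in that higher group, CLU thus lay close to the 2-fold limit. The median over all these genes was -0.09.

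The Snail library had log2 ratios of -1.58 for CLU (2.62 against 9.85 FPKM) and -1.16 for SORT1 (2.08 against 5.86 FPKM). The level in EV was 3.76 times that with Snail for CLU and 2.82 times for SORT1. Here 1.50% of 11644 genes were lower by 2-fold or more, and 37 genes had a lower ratio than CLU and 115 than SORT1. By rank, both genes stood further out with Snail than with Zeb1. A pseudocount of 5 FPKM in place of 1 left both genes short of 2-fold, at 0.84 and 0.89 with Zeb1 and at -0.96 and -0.62 with Snail, for CLU and SORT1. The authors' deposited signed folds were 2.19 and -3.76 for CLU and 2.57 and -2.82 for SORT1, with Zeb1 and with Snail. They equal the plain ratios of the same FPKM values and are no separate check.

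Set against each other without the EV library, Zeb1 and Snail differed by 8.24 times for CLU (21.6 against 2.62 FPKM, log2 ratio 2.64) and 7.26 times for SORT1 (15.1 against 2.08 FPKM, 2.39). The sign of this ratio follows from the rule. Of 11732 genes, 2.34% were higher by 2-fold or more with Zeb1 than with Snail, and 28 genes had a larger ratio than CLU and 40 than SORT1.

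The Ovol2 library was not part of the rule, though its ratio shares the EV library with those that were. CLU was at 12.02 FPKM with Ovol2 and 9.85 with EV (log2 ratio 0.26, plain ratio 1.22), and SORT1 at 8.95 with Ovol2 and 5.86 with EV (0.54, 1.53). Neither reached 2-fold on this scale. In the same comparison 6.82% of 11812 genes were higher and 25.1% lower by 2-fold or more, and the median gene was at -0.51, so CLU lay above 80.1% of genes and SORT1 above 86.3%. Scaling the libraries to the same upper quartile shifted Ovol2 against EV by 0.93 and put both past 2-fold (1.12 for CLU and 1.37 for SORT1). Every 2-fold call with Ovol2 below is on the deposited scale, and many rest on it. A shift of this size would leave lower calls such as APP (-1.33) and MCL1 (-1.67) short of 2-fold and would add higher ones. The counts of list members with Ovol2 were not repeated with this scaling. On the deposited scale Ovol2 stood above Snail by 4.58 times for CLU and 4.31 times for SORT1, and below Zeb1 at 0.556 and 0.593 of its level. With equal upper quartiles the Zeb1 ratios to EV were 1.25 for CLU and 1.41 for SORT1, close to those of Ovol2.

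The full order, Zeb1 above Ovol2 above EV above Snail, was shared by 29 of the 8277 genes that reached 5 FPKM in any library, or 0.350%. The rule had already fixed Zeb1 above EV above Snail for the pair, and only the place of Ovol2 was free, so this share is no measure of how unusual the pair is. Within each library the FPKM of CLU was 1.43 times that of SORT1 with Zeb1, 1.26 times with Snail, 1.34 times with Ovol2 and 1.68 times with EV. The rule set the direction of both genes in 3 of the 4 libraries, so the steadiness of this ratio is a description only.

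The rule itself found 0.0161% of the 12388 genes. SORT1 lay just inside it at -1.16 on the Snail side, and CLU at 1.06 on the Zeb1 side. Just outside were NPNT, which encodes the matrix protein nephronectin, with log2 ratios of 1.56 with Zeb1 and -0.83 with Snail, and CYP1B1, a cytochrome P450 enzyme, with 2.88 and -0.73. The matrix metalloproteinase MMP7 followed with 1.38 and -0.73, the multidrug transporter ABCC3 with 0.70 and -1.002 and PDZK1IP1, a small membrane protein, with 0.70 and -0.78. With Ovol2 these 5 differed, NPNT at -1.50 and MMP7 at -0.73 against CYP1B1 at 0.63, ABCC3 at 0.22 and PDZK1IP1 at 1.72.

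The opposite pattern, lower with Zeb1 and higher with Snail by 2-fold or more, was shown by 0 genes. Nearest to it were PTGS2, the inducible cyclooxygenase (-1.12 with Zeb1 and 0.94 with Snail), and the placental alkaline phosphatase ALPP (-0.89 and 1.30). WFDC2, a secreted protein with domains of the whey acidic protein type, followed (-1.86 and 0.76). At 1.5-fold, 8 genes had the pattern of the pair and 11 showed the opposite pattern.

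**Figure D2:**
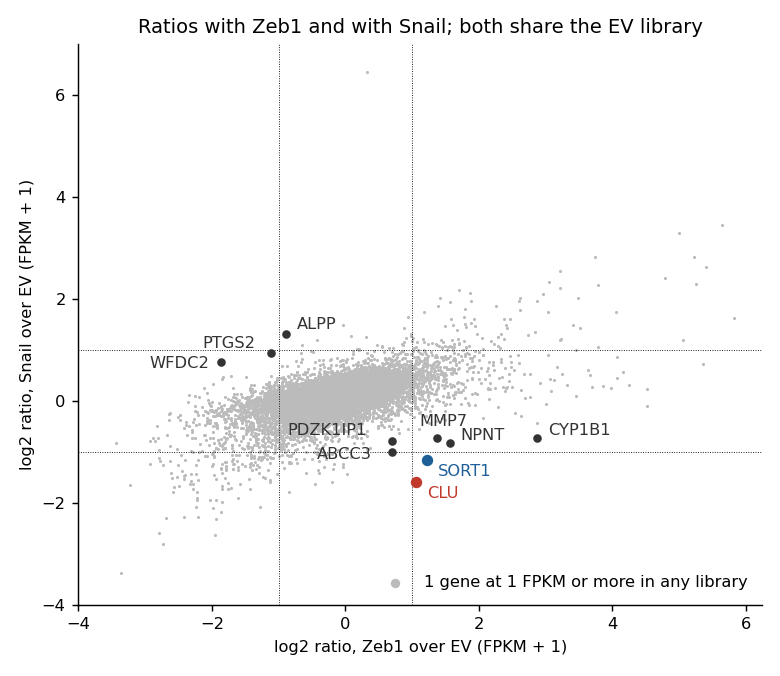
Log2 ratio of FPKM + 1 of Zeb1 over EV (x axis) and Snail over EV (y axis) for genes at 1 FPKM or more in any library, with dotted lines at 2-fold. CLU and SORT1 are the 2 points in the lower right field, and the named black points are the genes nearest to it and to the upper left field. Both axes share the EV library, so the slope of the cloud is not a result.

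The genes whose profile was most like those of the pair were found by the distance between log2(FPKM + 1) values over the 4 libraries, after the mean of each gene was taken off, among genes at 5 FPKM or more in any library. SORT1 was the nearest to CLU and CLU the nearest to SORT1, at 0.31 log2 units, where the median gene lay 2.40 from CLU and 2.26 from SORT1. Both were chosen for 3 of these 4 values, so this closeness is partly built in. ABCC3 was the second for both (0.68 from CLU and 0.53 from SORT1), with 8.64 FPKM with Zeb1, 1.96 with Snail, 5.89 with Ovol2 and 4.92 with EV.

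NOTCH3, a Notch receptor, was the fifth for both, with 5.42 FPKM with Zeb1, 1.61 with Snail, 3.53 with Ovol2 and 3.94 with EV. PLAU, the urokinase plasminogen activator, was the fourth from CLU. Its level was low only with Snail (11.9 FPKM), against 34.3 with Zeb1, 24.3 with Ovol2 and 33.8 with EV. TNFSF9, the ligand of 4-1BB, was the fourth from SORT1 and was about as high with Ovol2 (15.5 FPKM) as with Zeb1 (14.9), with 3.93 with Snail and 4.64 with EV.

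**Figure D3:**
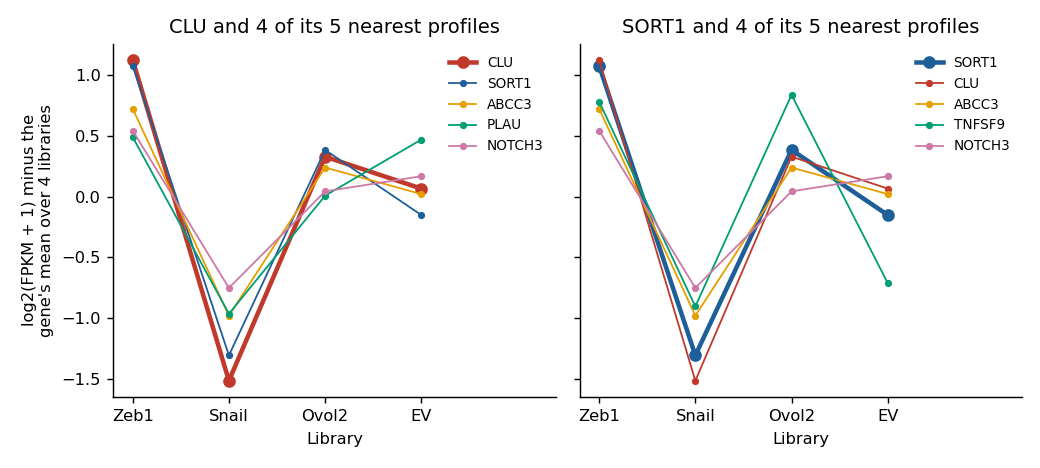
Log2(FPKM + 1) minus each gene's mean over the 4 libraries, for CLU (left) and SORT1 (right), drawn as thick lines, and 4 of the 5 nearest genes of each. Every line drawn has its lowest point in the Snail library. This is partly built in, since the genes were chosen for closeness to a pair selected as low with Snail.

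Of the other VPS10P-domain receptors only SORL1, which sorts amyloid precursor protein and lipoproteins in neurons and other cells, reached 1 FPKM. It stood at 0.493 FPKM with Zeb1, 0.580 with Snail, 0.410 with Ovol2 and 1.995 with EV, lower with each factor than with EV. This passed 2-fold with Zeb1 (-1.004) and Ovol2 (-1.09) and not with Snail (-0.92), while with ratios centred on the median gene it passed 2-fold with Snail and not with Zeb1 or Ovol2. SORCS1, SORCS2 and SORCS3 were at or below 0.127 FPKM in every library. SORT1 was thus the most abundant receptor of its family in each of the 4 libraries.

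Of 19 sortilin ligands and co-receptors, 5 reached 1 FPKM, among them the lysosomal cargo prosaposin (PSAP), acid sphingomyelinase (SMPD1) and progranulin (GRN). SMPD1 was at 6.94 FPKM with Zeb1, 3.68 with Snail, 3.27 with Ovol2 and 2.69 with EV, and was the only one past 2-fold with Zeb1 (1.11), upward. PSAP was far more abundant, at 1073 FPKM with Zeb1, 925 with Snail, 502 with Ovol2 and 758 with EV. GRN ran from 59.4 with Ovol2 to 87.2 FPKM with Snail. None of the 5 was past 2-fold with Snail, and with Ovol2 the amyloid precursor APP was lower (-1.33). Over all genes 4.52% were higher with Zeb1, 1.00% higher and 1.50% lower with Snail, and 25.1% lower with Ovol2. The counts with Snail and Ovol2 are near these shares. The neurotrophins BDNF and NTF3, the receptors NGFR, NTRK2 and NTRK3, and LPL and APOB did not reach 1 FPKM in any library.

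The machinery that moves sortilin between the Golgi and endosomes was present throughout, with 24 of 24 genes kept. With Zeb1, 1 was higher and 3 were lower by 2-fold or more, beside 4.52% and 8.49% of all genes. With Snail the counts were 0 and 0 (1.00% and 1.50% of all genes), and with Ovol2 1 and 3 (6.82% and 25.1%). The counts with Zeb1 and with Snail and the higher count with Ovol2 are near these shares. The epithelial AP-1 subunit AP1M2 had the widest range, 2.49 FPKM with Zeb1, 17.2 with Snail, 33.9 with Ovol2 and 20.7 with EV. The clathrin light chain CLTB and AP1S3 were the others lower with Zeb1 (-1.65 and -1.31), and AP1S2 was higher (1.08). With Ovol2 the lower ones were IGF2R, the mannose 6-phosphate receptor that shares cargo with sortilin (-2.11), AP1S2 (-1.08) and AP1G2 (-1.04), and AP1S1 was higher (1.25). The list medians were -0.16, 0.12 and -0.26 with Zeb1, Snail and Ovol2, beside -0.09, 0.12 and -0.51 over all genes. The retromer core VPS35, VPS26A and VPS29 and the smaller mannose 6-phosphate receptor M6PR stayed within 2-fold in every comparison with EV.

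Of 29 lysosomal genes, mostly of hydrolases and membrane proteins but with the regulator TFEB among them, all were kept. With Zeb1 0 were higher and 2 lower by 2-fold or more, the cathepsins CTSH (-1.80) and CTSD (-1.05). With Snail 0 were higher and 0 lower. With Ovol2 4 were higher, among them CTSH (1.82), NEU1 (1.08) and CTSA (1.03), and 5 lower, among them the cathepsins CTSZ (-2.32) and CTSL (-1.34), the lysosomal membrane protein SCARB2 (-1.81) and the sulfatase ARSA (-1.09). CTSH was at 6.07 FPKM with Zeb1, 17.6 with Snail, 85.9 with Ovol2 and 23.7 with EV. Over all genes 4.52% were higher and 8.49% lower with Zeb1, and with Ovol2 6.82% were higher and 25.1% lower. The medians were 0.09, 0.08 and -0.39 with Zeb1, Snail and Ovol2. The counts with Zeb1 are near the shares over all genes, and so is the absence of calls with Snail (1.00% higher and 1.50% lower).

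In a list of clusterin and lipoprotein receptors together with apolipoproteins, 8 genes besides CLU were kept with Zeb1 and with Snail. With Zeb1 0 were higher and 6 lower by 2-fold or more, beside 4.52% and 8.49% of all genes, and with Snail 0 were higher and 1 lower, beside 1.00% and 1.50%. TREM2, an innate immune receptor that binds clusterin and other lipoproteins, was at 1.64 FPKM with Zeb1, 2.01 with Snail, 71.3 with Ovol2 and 17.2 with EV, low with both EMT factors. Others lower with Zeb1 were the lipoprotein receptors LSR (-1.98), SCARB1 (-1.37) and LRP8 (-1.05) and the apolipoprotein APOC1 (-1.26). LRP1, a large scavenger receptor, came closest to CLU in direction, at 14.5 FPKM with Zeb1, 4.56 with Snail and 7.10 with EV (0.93 and -0.54, neither past 2-fold), but stood at 2.05 with Ovol2 (-1.41). With Ovol2, of 9 kept, TREM2 (1.99), APOD (1.09) and APOC1 (1.05) were higher, and 4 were lower, among them OLR1 (-2.85), LRP1 and SCARB1 (-1.17), beside 6.82% higher and 25.1% lower over all genes. APOE and the megalin gene LRP2, which takes up clusterin, did not reach 1 FPKM.

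Of 22 complement genes, 9 were kept. With Zeb1, 3 were higher, among them C3 (1.15) and C1S (1.12), and 0 lower, with Snail 0 were higher and 0 lower, and with Ovol2 0 were higher and 7 of 9 lower. Over all genes the shares higher and lower were 4.52% and 8.49% with Zeb1, 1.00% and 1.50% with Snail, and 6.82% and 25.1% with Ovol2, so the count with Snail is near its share. C3, the central component, was at 125 FPKM with Zeb1, 73.8 with Snail, 11.6 with Ovol2 and 55.6 with EV. The list medians were 0.85, 0.34 and -1.58. The late components C5, C6, C7, C8A, C8B, C8G and C9, whose complex clusterin binds, were below 1 FPKM in every library. CD59, a membrane inhibitor of the same complex, was at 88.3 FPKM with Zeb1, 76.8 with Snail, 35.3 with Ovol2 and 48.3 with EV.

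Of 10 kept chaperones besides CLU, 1 was higher and 3 lower with Zeb1, 0 and 0 past 2-fold with Snail, and 3 higher and 2 lower with Ovol2. The counts with Snail and the lower ones with Ovol2 are near the shares over all genes (1.00% higher and 1.50% lower with Snail, 25.1% lower with Ovol2), and 4.52% were higher and 8.49% lower with Zeb1 and 6.82% higher with Ovol2. The small heat shock protein CRYAB was at 16.7 FPKM with Zeb1, 2.10 with Snail, 26.4 with Ovol2 and 0.965 with EV. HSPB1 (-1.48), HSPA1B (-1.18) and HSPA8 (-1.15) were lower with Zeb1. HSPB1, DNAJB1 and CRYAB were higher with Ovol2, where HSP90AA1 (-1.14) and HSF1 (-1.14), the factor that drives heat shock genes, were lower. HSPA1A and HSPA1B are near-identical copies, so their split is uncertain. Alpha-2-macroglobulin (A2M), the other extracellular chaperone listed, was at or below 0.0175 FPKM.

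Of 10 kept BCL2 family genes and partners, 0 were past 2-fold with Zeb1 and PMAIP1, the pro-apoptotic NOXA, was the 1 lower with Snail (-1.33). Over all genes 4.52% were higher and 8.49% lower with Zeb1, near the count here, and 1.50% were lower with Snail. PMAIP1 was at 6.20 FPKM with Zeb1, 2.26 with Snail, 12.6 with Ovol2 and 7.17 with EV, so it shared the low Snail value of CLU but not the high Zeb1 value. BAX, which clusterin is known to bind, was at 28.4 FPKM with Zeb1, 21.5 with Snail, 22.8 with Ovol2 and 20.2 with EV. With Ovol2, BAD was higher (1.32) and MCL1 lower (-1.67), beside 6.82% and 25.1% of all genes.

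Of 9 kept genes of mammary involution and STAT3 signalling besides CLU, the cytokine receptor subunit IL6ST was the 1 higher with Zeb1 (1.44) and the metalloproteinase MMP3 the 1 lower with Zeb1 (-1.21) and with Snail (-1.51). With Ovol2 0 were higher and 5 lower, IL6ST (-2.57), OSMR (-2.52), MMP3 (-1.55), CTSL and STAT3 itself (-1.28), beside 6.82% higher and 25.1% lower over all genes. The shares over all genes were 4.52% higher and 8.49% lower with Zeb1 and 1.50% lower with Snail. IL6ST was at 48.5 FPKM with Zeb1, 32.3 with Snail, 2.08 with Ovol2 and 17.3 with EV. IGFBP5 and LIF, known from involution, did not reach 1 FPKM.

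**Figure D4:**
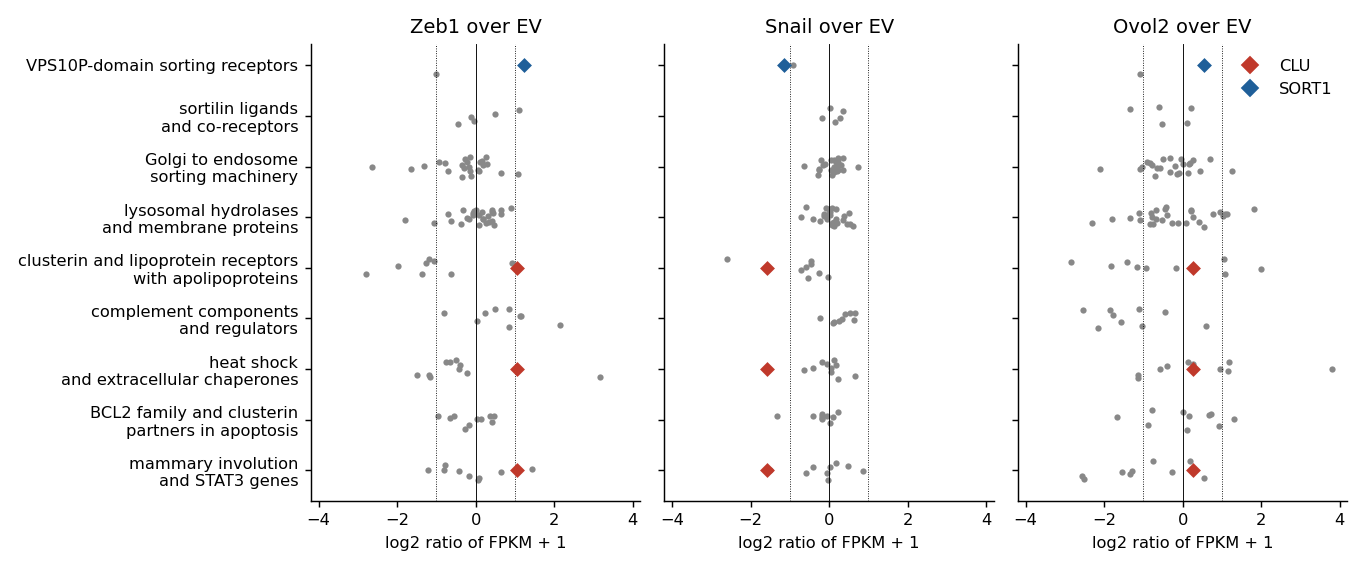
Log2 ratio of FPKM + 1 over EV for the kept members of 9 gene lists with Zeb1 (left), Snail (middle) and Ovol2 (right), 1 point a gene, with dotted lines at 2-fold. The diamonds of CLU and SORT1 lie past the right line with Zeb1 and past the left line with Snail, as the rule required. Most other points with Snail lie between the lines. Over all genes with Snail, 1.00% were higher and 1.50% lower by 2-fold or more.

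The genes beside the pair on their chromosomes were read for comparison. With 0.0161% of all genes meeting the rule, its absence among them says nothing about these regions. CLU lies on chromosome 8 between EPHX2 and SCARA3. EPHX2, soluble epoxide hydrolase, was at 1.75 FPKM with Zeb1, 2.57 with Snail, 7.85 with Ovol2 and 3.58 with EV. SCARA3, a scavenger receptor-like protein, was at 2.18 with Zeb1, 4.88 with Snail, 2.86 with Ovol2 and 7.58 with EV. Of 7 kept neighbours, 0 were higher and 3 lower with Zeb1 (SCARA3, and the cell cycle genes ESCO2 and PBK), 0 were past 2-fold with Snail, and 3 were lower with Ovol2 (SCARA3, TRIM35 and the kinase PTK2B). Over all genes 4.52% were higher and 8.49% lower with Zeb1, 1.00% and 1.50% with Snail, and 25.1% were lower with Ovol2. The counts with Snail and the higher count with Zeb1 are near these shares.

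SORT1 lies on chromosome 1 between MYBPHL and PSMA5, beside PSRC1 and CELSR2, in a region known for its link to plasma cholesterol. PSMA5, a proteasome subunit, was at 14.8 FPKM with Zeb1, 18.7 with Snail, 45.9 with Ovol2 and 23.3 with EV. The cadherin CELSR2 was at 1.91 with Zeb1, 1.80 with Snail, 4.13 with Ovol2 and 7.68 with EV, past 2-fold lower with both EMT factors. MYBPHL was lower with Zeb1 (-1.34), and the other kept neighbours, SARS, PSRC1, ATXN7L2 and CYB561D1, stayed within 2-fold in all 3 comparisons with EV. Of 7 kept neighbours, 2 were thus lower with Zeb1, 1 with Snail and 0 with Ovol2. Over all genes the shares lower were 8.49%, 1.50% and 25.1%. In RefSeq a microRNA gene, MIR6843, lies inside CLU. It was listed at 0.347 FPKM with Zeb1 and at 0 in the other libraries. CLUL1, the paralog of CLU, did not exceed 0.120 FPKM.

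**Figure D5:**
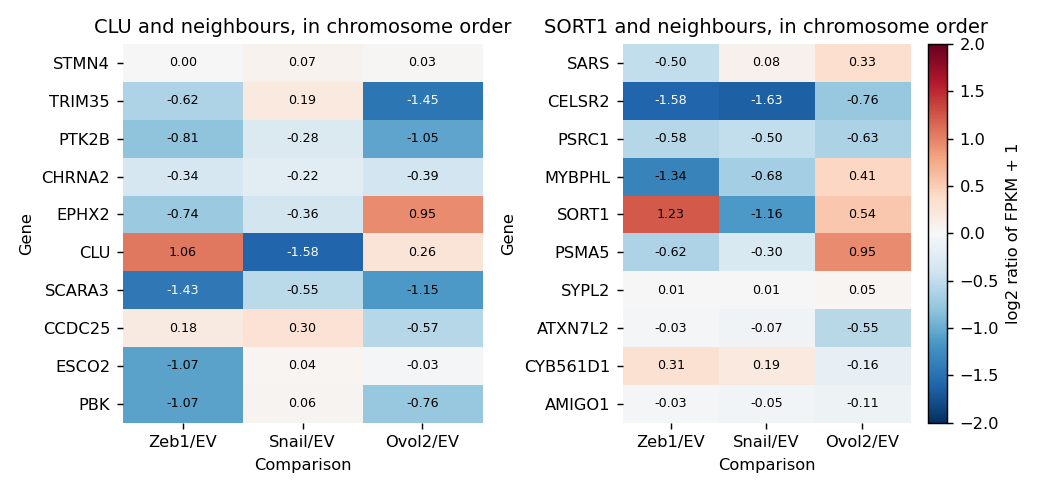
Log2 ratio of FPKM + 1 over EV for CLU and SORT1 and their named neighbours, in chromosome order, with Zeb1, Snail and Ovol2 (columns). Red is higher and blue lower than EV. CLU (1.06, -1.58, 0.26) and SORT1 (1.23, -1.16, 0.54) are the only rows that are red with Zeb1 and blue with Snail past 2-fold. CHRNA2, STMN4, AMIGO1 and SYPL2 did not reach 1 FPKM.

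Markers of other cells were also read beside these levels. Of 4 leukocyte markers, CD14 was at 17.0 FPKM with Zeb1, 0.828 with Snail, 2.49 with Ovol2 and 1.46 with EV, and CD68 at 4.86, 2.24, 5.09 and 1.76 in the same libraries, while PTPRC did not exceed 0.0177 and CD3E was listed at 0 in all. Their sum was 21.8 FPKM with Zeb1, 3.07 with Snail, 7.59 with Ovol2 and 3.22 with EV. The endothelial markers PECAM1, CDH5 and VWF summed to 0.0611 FPKM with Zeb1, 0.0491 with Snail, 1.502 with Ovol2 and 0.0478 with EV. The part of such cells in the levels of CLU and SORT1 was not tested.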

How the data were processed

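Messenger RNA of 4 libraries, 1 a group, was analysed from 3 tables that the authors deposited, each with the EV library beside 1 factor library. The authors' deposited values were read as FPKM, since the lowest values step with transcript length, though no header names the unit. Per the submitters' processing notes, the tools were Cufflinks, Cuffdiff and TopHat on hg19. Their versions, the annotation and the strand setting were not stated. The EV values were the same in all tables. The authors' signed fold, a deposited score of factor over EV, is quoted only for the pair.

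Rows that repeat a symbol (43 of 25360) were summed. Ratios are log2 of FPKM + 1. This pseudocount understates differences of genes with low values. A gene was kept in a comparison if at least 1 of its libraries reached 1 FPKM, and 2-fold or more on this scale was called higher or lower in place of a test. The members and gene lists were chosen with earlier results of these data known. The genes named are the pair, the delivered factors, the 5 genes just outside the rule and 3 nearest its opposite, the 5 nearest profiles, the neighbours, the VPS10P-domain receptors and up to 6 members of each list with the widest range. Further list members were named beside counts of at most 5 and where a known partner of the pair was of interest, after their values were seen. Some genes that this rule names are not reported here. Lists held 22 complement genes of which C4A and C4B were not matched by symbol and are not analysed here. Lengths came from GENCODE and promoters from RefSeq. Steps were tested on simulated data. Python 3.11.15, pandas 2.3.3 and numpy 2.4.6 were used.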

Additional observations from a re-analysis of the deposited data

How the results depend on the processing

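No paired analysis was possible because each group held 1 library, and for the same reason no replicate could be left out. With a pseudocount of 5 FPKM the ratios against EV fell short of 2-fold, at 0.84 with Zeb1 and -0.96 with Snail for CLU and at 0.89 with Zeb1 and -0.62 with Snail for SORT1, and 0 genes met the rule. With a pseudocount of 0.1 FPKM 12 genes met it, CLU and SORT1 among them, of which 4 reached 5 FPKM in any library, and 3 showed the opposite pattern. With centring, upper quartile scaling, no filter and a filter of 5 FPKM the same 2 genes met it, SORT1 with Snail by a small margin under upper quartile scaling (-1.005). Upper quartile scaling put the Ovol2 ratios past 2-fold, at 1.12 for CLU and 1.37 for SORT1. This scaling alone moved the Ovol2 ratio by 0.93 on the log2 scale, whereas equal FPKM totals without RMRP and RPPH1 moved it by -0.23 and left ratios of 0.06 for CLU and 0.34 for SORT1. Correction for transcript length left the ratios with Zeb1 at 1.29 and 1.42 and with Snail at -1.69 and -1.29, for CLU and SORT1. The Zeb1 over Snail ratios ranged from 1.80 to 2.99 for CLU and from 1.504 to 2.80 for SORT1 under these settings. By Pearson's correlation over the 4 libraries, 3 of the 5 genes nearest to CLU and 2 of the 5 nearest to SORT1 were shared with those by distance, and ABCC3 came first for both.

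Of the 66 counts of list members, 14 moved by more than 1.5 times when ratios were centred, 5 with a filter of 5 FPKM and 0 with no filter. The counts were not repeated with upper quartile scaling, which moved the Ovol2 ratios further than centring did. Centring left 0 VPS10P-domain receptors lower with Zeb1 and 2 lower with Snail, SORT1 and SORL1. With 1 library a group, the spread between libraries of a group is unknown, and depth bounds counting error only.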
